A study of Homo sapiens with 6 samples.

Results

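The genes described here are 10 members of the leukaemia stem cell score LSC17, CD34, CDK6, NYNRIN, SMIM24, CPXM1, LAPTM4B, SOCS2, ADGRG1, EMP1 and ARHGAP22, followed through knockdown of fibrillarin in an acute myeloid leukaemia line. They were chosen by symbol, as well-known genes of that score, from the 31966 gene rows of the deposited count table, and each of the 10 symbols had 1 row. The FBL knockdown group (shFBL, n = 3) was Kasumi-1 cells with a doxycycline-inducible hairpin RNA against FBL, and the control group (shLUC, n = 3) was Kasumi-1 cells with an inducible hairpin against luciferase. Both groups received 100 ng/ml doxycycline for 72 h, so that the drug is shared by knockdown and control. Kasumi-1 is an established line with the RUNX1-RUNX1T1 fusion, and no other FBL hairpin and no rescue is named in the labels. Total counts lay between 85556300 and 103148000 per library, the first principal component of log2 CPM (60.0% of the variance) parted the groups, and mitochondrial genes took 14.7% to 18.8% of counts in knockdown and 12.4% to 15.2% in control libraries. The part of that share in the results was not tested. Nothing in the labels states that the replicates were grown apart, so every p-value here reflects the spread among 6 libraries, and that spread may be technical.

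Leukaemia stem cells are the fraction of leukaemic blasts that can regrow the disease on transplantation. The full score has 17 genes, picked because they are more strongly expressed in cell fractions that engraft, and it adds up their expression with fixed weights. In that sum CD34, NYNRIN, LAPTM4B, SOCS2, EMP1 and ADGRG1 have positive weights, and CDK6, CPXM1, SMIM24 and ARHGAP22 have negative ones. The products are unrelated: a surface sialomucin of blood stem and progenitor cells (CD34), an adhesion G protein-coupled receptor (ADGRG1, older name GPR56), a feedback inhibitor of cytokine receptors (SOCS2), a cell cycle kinase (CDK6), a RAC GTPase-activating protein (ARHGAP22) and several membrane or secreted proteins. Fibrillarin, the product of FBL, is the methyltransferase that box C/D guide RNAs direct to ribosomal RNA. The series asks how ribosomal RNA methylation relates to stemness in this leukaemia, and the score genes are followed here as messenger RNA. The weighted score itself was not computed, and whether these levels track stemness was not tested.

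Of the 10 score genes, 9 had enough counts to be tested, and 6 of these 9 were higher in FBL knockdown cells: SMIM24, NYNRIN, CPXM1, CD34, SOCS2 and LAPTM4B. None of the 9 was lower (0 genes at an adjusted p under 0.05). ADGRG1, CDK6 and ARHGAP22 did not pass the test, and EMP1 was hardly detected. Over all 18486 genes tested, 32.6% passed edgeR's quasi-likelihood test at a Benjamini-Hochberg adjusted p under 0.05, 15.7% as higher and 16.9% as lower. The median log2 fold change of the 9 tested score genes was 0.44, beside -0.01 over all tested genes. The 10 genes were chosen with earlier results of these data known, so these values describe them and do not test the score. Of the 2 other score genes that were tested, 0 were higher and 1 was lower, with a median of -0.09. The groups did not overlap for 7 of the 9, against 45.2% of all tested genes. Of all called genes 48.1% were higher, and with upper-quartile scaling 58.6%.

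By GENCODE v29 (GRCh38) all 10 are protein-coding genes, on 9 chromosomes. The genes with higher levels in knockdown cells were SMIM24 (ENSG00000095932) at chr19:3473986-3480542 on the minus strand, NYNRIN (ENSG00000205978) at chr14:24398786-24419288 on the plus strand, CPXM1 (ENSG00000088882) at chr20:2794069-2800637 on the minus strand, CD34 (ENSG00000174059) at chr1:207880972-207911402 on the minus strand, SOCS2 (ENSG00000120833) at chr12:93569814-93583487 on the plus strand and LAPTM4B (ENSG00000104341) at chr8:97775057-97853013 on the plus strand. The remaining genes were ADGRG1 (ENSG00000205336) at chr16:57610652-57665580 on the plus strand, CDK6 (ENSG00000105810) at chr7:92604921-92836594 on the minus strand, ARHGAP22 (ENSG00000128805) at chr10:48446034-48656265 on the minus strand and EMP1 (ENSG00000134531) at chr12:13196716-13219939 on the plus strand.

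FBL itself stood at 54.0, 32.4 and 44.9 CPM (read counts scaled to a common library total with TMM factors) in the knockdown libraries and at 580, 550 and 544 CPM in the control libraries. Its log2 fold change was -3.67 ± 0.17 (standard error, SE; edgeR adjusted p = 3.85e-06), and every library matched its label. Of the line's defining genes, MPO, the granule peroxidase of myeloid blasts, was at 5413 ± 514 CPM in knockdown and 7256 ± 774 CPM in control cells (SD, n = 3 each). KIT was at 76.9 and 84.8 CPM and CD33 at 39.0 and 44.8 CPM in knockdown and control cells. The markers PTPRC and CD38 were low, at 0.95 and 1.35 CPM in knockdown cells and 0.76 and 1.08 CPM in controls. Neither fusion gene passed edgeR's test, with RUNX1 at 0.15 ± 0.09 (log2 fold change ± SE, adjusted p = 0.22) and RUNX1T1 at 0.06 ± 0.11 (adjusted p = 0.698). RUNX1 passed with a GC correction (log2 0.19, adjusted p = 0.0195). Counts are per gene, so reads of the fusion transcript and of the unfused genes were not told apart. Summed markers of T cells (4 of 5 listed genes found), B cells (3 of 4), natural killer cells (4 of 4), erythroid cells (3 of 4), fibroblasts (2 of 4), endothelium (4 of 4) and epithelium (4 of 4) stayed low. The T cell sum was 0.119 to 0.260 CPM in knockdown and 0.316 to 0.430 CPM in control libraries, the B cell sum 1.46 to 1.78 and 1.22 to 1.45 CPM, and the natural killer sum 1.05 to 1.29 and 0.407 to 0.594 CPM. The erythroid sum was 0.022 to 0.119 CPM in knockdown and 0.040 to 0.043 CPM in control libraries, the fibroblast sum 0.054 to 0.141 and 0.021 to 0.031 CPM, the endothelial sum 0.260 to 0.401 and 0.279 to 0.328 CPM, and the epithelial sum 0.087 to 0.098 and 0.031 to 0.097 CPM. Every row of the count table has at least 1 read, so a marker that was found could not be at 0 in all 6 libraries. Among these markers NKG7, a granule membrane gene of natural killer cells, was higher in knockdown cells (1.11 ± 0.13 CPM against 0.469 ± 0.083 CPM in control cells, SD, n = 3 each; edgeR adjusted p = 0.000832), while NCAM1, KLRD1 and GNLY had at most 4 reads each per group. The part of these marker levels in the score genes' values was not tested.

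The promoters of the higher score genes are shown because these transcripts moved in the same direction. RefSeq windows from 250 bases before to 50 bases after a gene's start (GRCh38.p14) were analysed for 8 of the 10 genes. These were 14 windows in all, assigned by symbol. No window of LAPTM4B or SOCS2 was analysed, so the promoters of these higher genes are not described. The 4 windows below belong to the higher genes whose windows were analysed. They lie at chr1:207911076-207911375 on the minus strand (CD34), chr14:24398753-24399052 on the plus strand (NYNRIN), chr19:3480476-3480775 on the minus strand (SMIM24) and chr20:2800578-2800877 on the minus strand (CPXM1). Each is written 5′ to 3′ along the gene, and capitals mark the GC box, GGGCGG or its reverse complement CCGCCC, the core sequence bound by SP1-family factors.
CD34: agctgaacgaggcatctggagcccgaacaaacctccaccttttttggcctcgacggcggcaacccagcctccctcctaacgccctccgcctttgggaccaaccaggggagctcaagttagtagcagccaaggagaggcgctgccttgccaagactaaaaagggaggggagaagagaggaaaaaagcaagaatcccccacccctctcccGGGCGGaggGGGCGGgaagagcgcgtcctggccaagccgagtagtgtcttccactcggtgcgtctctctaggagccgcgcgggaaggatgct
NYNRIN: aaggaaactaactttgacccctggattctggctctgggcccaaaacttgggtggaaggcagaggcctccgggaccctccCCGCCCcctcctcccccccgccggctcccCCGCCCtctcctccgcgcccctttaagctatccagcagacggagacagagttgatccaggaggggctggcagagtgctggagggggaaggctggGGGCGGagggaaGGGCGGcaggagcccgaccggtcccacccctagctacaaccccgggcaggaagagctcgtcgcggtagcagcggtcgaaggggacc
SMIM24: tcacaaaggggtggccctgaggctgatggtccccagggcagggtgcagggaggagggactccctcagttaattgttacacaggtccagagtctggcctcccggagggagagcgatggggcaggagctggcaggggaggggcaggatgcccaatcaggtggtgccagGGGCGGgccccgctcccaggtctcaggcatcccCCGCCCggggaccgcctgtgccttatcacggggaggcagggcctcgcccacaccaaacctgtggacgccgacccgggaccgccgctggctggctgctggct
CPXM1: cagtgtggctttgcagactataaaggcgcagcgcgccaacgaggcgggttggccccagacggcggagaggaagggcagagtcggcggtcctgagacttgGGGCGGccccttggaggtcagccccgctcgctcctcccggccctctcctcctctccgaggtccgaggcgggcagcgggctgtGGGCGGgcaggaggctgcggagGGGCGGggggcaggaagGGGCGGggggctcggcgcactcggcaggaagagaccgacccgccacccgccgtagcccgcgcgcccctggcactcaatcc

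Both strands were searched, with overlapping matches counted. The CD34 and SMIM24 windows held 2 GC boxes each and those of NYNRIN and CPXM1 held 4 each. It also occurred in 3 of the 4 ARHGAP22 windows, in 1 of the 2 CDK6 windows and in the EMP1 window, but in 0 of the 3 ADGRG1 windows. It was present in 9 of the 14 windows in all, and in 15786 of all 35116 promoter windows. GC content was 61.7% for CD34, 68.0% for NYNRIN, 69.3% for SMIM24 and 73.7% for CPXM1, against a median of 58.7% over all windows. Windows of genes that did not pass reached similar or higher values, with 78.0% and 68.7% for CDK6, 43.7% to 79.0% for ARHGAP22 and 59.7% to 66.0% for ADGRG1. The RUNX core TGTGGT, a sequence that the fusion's DNA-binding part recognises, was in 1 of the 14 windows (EMP1) and in 13.1% of all windows. No other form of this core was searched. The GATA core GATAA was in 3 of the 14, those of SMIM24, CDK6 and ARHGAP22, and in 22.7% of all windows.

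SMIM24 and NYNRIN rose the most, both by more than 2-fold, which 3.75% of all tested genes did as higher genes past the threshold. SMIM24 encodes a small integral membrane protein and carries a negative weight in the score. It stood at 4.37, 4.44 and 4.49 CPM in the knockdown libraries, against 1.59, 1.29 and 1.78 CPM in the control libraries. The 3 knockdown values lay within a few percent of each other and every one was above every control value. The fold change was 2.85 (log2 1.51 ± 0.14 SE, 95% interval 1.21 to 1.82; edgeR adjusted p = 4.9e-05), larger than or equal to that of 98.7% of tested genes. NYNRIN, a gene with a retroviral integrase-like region and an NYN nuclease domain, carries a positive weight. It stood at 10.1, 10.6 and 10.2 CPM in knockdown and at 3.61, 4.42 and 3.72 CPM in control libraries. Again the groups were far apart, with the lowest knockdown library above the highest control library. Its fold change was 2.62 (log2 1.39 ± 0.11 SE, interval 1.15 to 1.64; edgeR adjusted p = 2.6e-05).

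CD34 and CPXM1 rose less. CD34, the antigen by which stem and progenitor cells are sorted, was at 3.78, 4.58 and 3.73 CPM in knockdown libraries and at 2.56, 2.59 and 2.48 CPM in control libraries. The control libraries differed by less than their counting error (an observed coefficient of variation of 2.21% beside 6.35% from counting alone), and all 3 knockdown libraries were above them. The fold change was 1.59 (log2 0.66 ± 0.13 SE, interval 0.39 to 0.94; edgeR adjusted p = 0.00249). CPXM1, a secreted member of the carboxypeptidase family, was at 38.7, 34.1 and 32.7 CPM in knockdown and at 16.5, 24.2 and 19.5 CPM in control libraries. Control replicate 2 was the highest control library and still lay under every knockdown library. The fold change was 1.76 (log2 0.81 ± 0.13 SE, interval 0.52 to 1.10; edgeR adjusted p = 0.00105). The intervals of SMIM24 and NYNRIN lay above that of CD34 without overlap, and the difference between genes was not tested.

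LAPTM4B and SOCS2 had the smallest increases among the 6. LAPTM4B, a membrane protein of late endosomes and lysosomes, was at 312, 367 and 324 CPM in knockdown and at 271, 234 and 253 CPM in control libraries. It was the most abundant of the 10 genes and made up 63.3% to 66.0% of their summed CPM in knockdown and 61.5% to 64.0% in control libraries. Its fold change was 1.32 (log2 0.40 ± 0.09 SE, interval 0.20 to 0.61; edgeR adjusted p = 0.00762). SOCS2, which is induced by STAT5 and dampens cytokine receptor signalling, was at 33.2, 39.5 and 38.1 CPM in knockdown and at 29.8, 25.4 and 26.7 CPM in control libraries. The gap between the lowest knockdown and the highest control library was small for both genes, but the groups did not overlap. Its fold change was 1.35 (log2 0.44 ± 0.10 SE, interval 0.22 to 0.65; edgeR adjusted p = 0.00662). SOCS2-AS1, which overlaps SOCS2 on the opposite strand, stood at 4.90 CPM in knockdown and 3.95 CPM in control cells (edgeR adjusted p = 0.0761). Its counts came to 13.8% of those of SOCS2, and without a stated strand setting reads of the pair cannot be told apart.

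**Figure D1:**
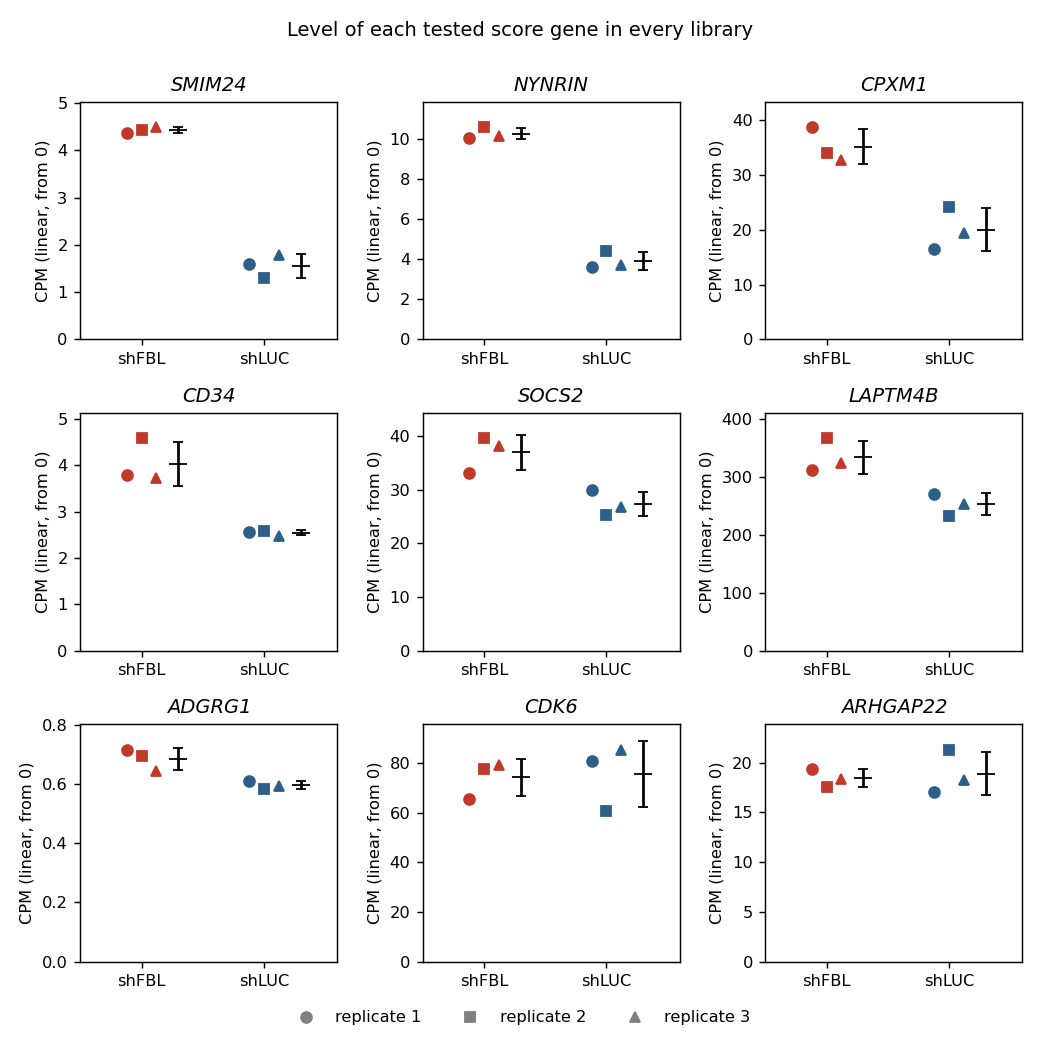
Level of the 9 tested score genes in each library, in CPM on linear axes that start at 0; symbols are replicates, and black marks give the mean and SD of 3 libraries per group. For the upper 6 genes and ADGRG1 every knockdown (shFBL) library lies above every control (shLUC) library, while CDK6 and ARHGAP22 overlap.

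CDK6, ARHGAP22 and ADGRG1 did not pass the test. CDK6, the kinase that pairs with D-type cyclins to phosphorylate RB1, was at 65.8, 77.7 and 79.5 CPM in knockdown and at 80.8, 60.7 and 85.5 CPM in control libraries. Its groups overlapped, and control replicate 2 was lower than every other library. The log2 fold change was -0.03 ± 0.13 (SE; interval -0.31 to 0.26; edgeR adjusted p = 0.897). The long noncoding RNA AC002454.1, opposite to CDK6, was higher in knockdown cells at 16.99 CPM against 11.2 CPM in control cells (log2 0.61 ± 0.10 SE, edgeR adjusted p = 0.00125), and its counts came to 18.6% of those of CDK6. Reads of this pair cannot be told apart either, since the strand setting is not stated. ARHGAP22 was at 19.3, 17.6 and 18.3 CPM in knockdown and at 17.1, 21.3 and 18.3 CPM in control libraries, and the groups overlapped. Its log2 fold change was -0.04 ± 0.10 (SE; interval -0.26 to 0.19; edgeR adjusted p = 0.809). For CDK6 the sign turned under upper-quartile scaling (0.04) and for ARHGAP22 as well (0.03).

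ADGRG1 had few reads and a small difference. It had 66, 64 and 57 reads in the knockdown libraries and 57, 57 and 60 reads in the control libraries, or 0.72, 0.69 and 0.64 CPM against 0.61, 0.58 and 0.59 CPM. The groups did not overlap, but counting alone gives a coefficient of variation of 12.7% at the knockdown level. The log2 fold change was 0.20 ± 0.17 (SE; interval -0.18 to 0.58; edgeR adjusted p = 0.41), so an increase of the size seen for SOCS2 would lie inside the interval. EMP1, a tetraspan membrane protein related to PMP22, had 1, 0 and 2 reads in knockdown and 1, 1 and 2 reads in control libraries. That is 3 reads in knockdown and 4 in control libraries together. The sums are at or near the limit of 3 counts per group, which is 0.0110 CPM in knockdown and 0.0103 CPM in control cells. No fold change is given for it.

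**Figure D2:**
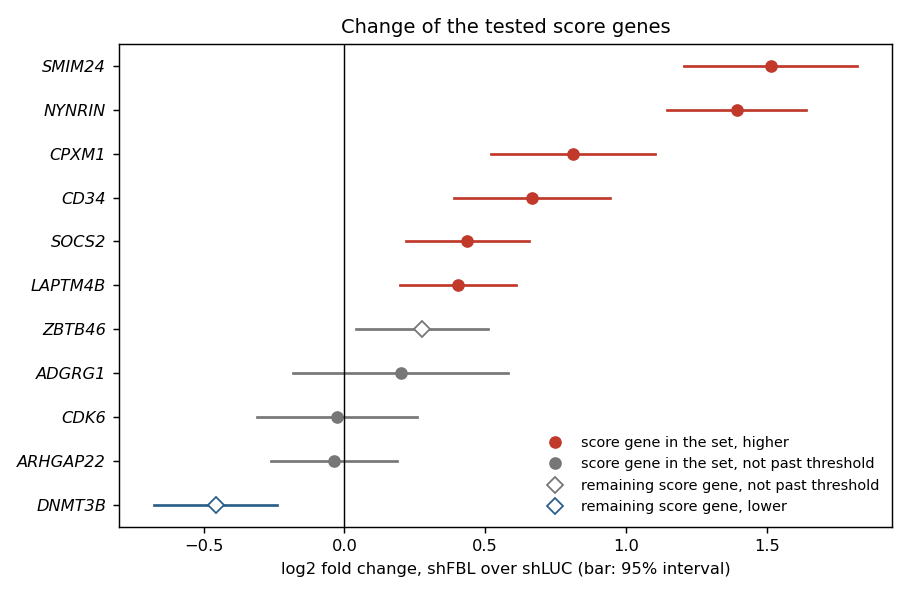
Log2 fold change (shFBL over shLUC) of the 11 tested genes of the full score, with bars for the 95% interval of edgeR's quasi-likelihood fit; filled circles are the described genes and open diamonds the remaining score genes. The intervals of SMIM24, NYNRIN, CPXM1, CD34, SOCS2 and LAPTM4B lie above 0, those of ADGRG1, CDK6 and ARHGAP22 include 0, and that of DNMT3B lies below it; ZBTB46 has an interval just above 0 but missed the adjusted threshold.

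Higher genes were found among those with positive and among those with negative weights. Among the described genes with a positive weight, 4 of 5 tested were higher (CD34, NYNRIN, LAPTM4B and SOCS2). Among those with a negative weight, 2 of 4 tested were higher (SMIM24 and CPXM1). Over all tested genes 15.7% were higher and 16.9% lower, and the split by sign was not tested. Of the 7 score genes outside the 10, 6 were found, 2 were tested, and MMRN1 was not analysed here. DNMT3B, a de novo DNA methyltransferase with a positive weight, fell to 8.63, 8.26 and 7.48 CPM in knockdown libraries, against 11.8, 11.0 and 10.7 CPM in control libraries. Its log2 fold change was -0.46 ± 0.10 (SE; edgeR adjusted p = 0.00534), and the groups did not overlap. ZBTB46, a transcription factor of classical dendritic cells with a negative weight, was at 8.61, 8.39 and 8.80 CPM in knockdown and 6.54, 7.95 and 6.80 CPM in control libraries. It missed the threshold (log2 0.28 ± 0.11 SE; edgeR adjusted p = 0.0684), and it passed without control replicate 2 (adjusted p = 0.0131). DPYSL3 had 17 reads in knockdown and 5 in control libraries together, FAM30A (older name KIAA0125) 11 and 6, and BEX3 (older name NGFRAP1) 0 and 1. AKR1C3 had 3 reads in knockdown and 3 in control libraries. Over the 11 tested genes of the full score, 6 were higher and 1 was lower.

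Levels between genes were compared on the deposited RPKM values (reads scaled by gene length and by library total), since CPM favours long genes. LAPTM4B was highest at 104 ± 8.0 RPKM in knockdown and 79.2 ± 5.6 RPKM in control cells (SD, n = 3 each). CPXM1 followed at 14.7 ± 1.5 RPKM in knockdown and 8.40 ± 1.65 RPKM in control cells, and then CDK6 at 6.04 ± 0.53 RPKM in knockdown and 6.18 ± 1.06 RPKM in control cells. SOCS2 was at 5.43 ± 0.42 RPKM in knockdown and 4.03 ± 0.33 RPKM in control cells. In knockdown cells the ranges of CDK6 and SOCS2 overlapped and all other neighbours in the order were apart. In control cells it was CPXM1 and CDK6 that overlapped.

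Only SMIM24 and ARHGAP22 changed places between the groups. SMIM24 was at 2.95 ± 0.02 RPKM, above ARHGAP22 at 2.71 ± 0.17 RPKM, in knockdown cells. In control cells it was at 1.04 ± 0.16 RPKM, below ARHGAP22 at 2.79 ± 0.33 RPKM. NYNRIN (1.29 ± 0.03 RPKM in knockdown, 0.494 ± 0.057 RPKM in control), CD34 (0.436 ± 0.048 and 0.277 ± 0.006 RPKM), ADGRG1 (0.079 ± 0.005 and 0.069 ± 0.001 RPKM) and EMP1 closed the order in both groups. By mean RPKM, CD34 lay at the 26.5th percentile of the tested genes and ADGRG1 at the 7.04th, while LAPTM4B lay at the 96.5th.

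**Figure D3:**
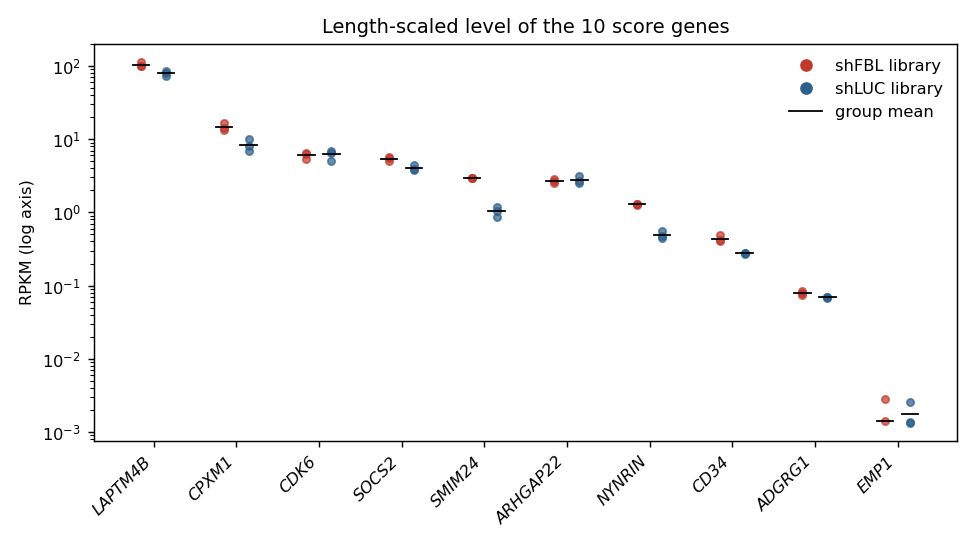
RPKM of the 10 genes on a log axis, with 1 point per library and a line for the group mean, ordered by the knockdown mean; shFBL is left of shLUC, and the EMP1 library with 0 reads is not drawn. Levels run from 104 RPKM for LAPTM4B in knockdown cells to near 0 for EMP1, and SMIM24 stands above ARHGAP22 only in knockdown cells.

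Higher genes were found at low and at high levels. Of the 3 tested genes with a mean of 1 to 10 CPM (SMIM24, CD34 and NYNRIN) all 3 were higher, where 17.2% of all tested genes of that range were. Of the 5 with a mean of at least 10 CPM, 3 were higher (CPXM1, SOCS2 and LAPTM4B), where 16.2% of all tested genes were. The transcripts of the 10 genes ranged from 39.5% GC (CDK6) to 64.8% GC (ARHGAP22), and both of these were genes that did not pass. The higher genes fell on both sides of that middle, with CD34, LAPTM4B and SOCS2 at 47.0% to 47.3% and SMIM24, NYNRIN and CPXM1 at 56.4% to 60.5%. With a per-library correction for GC content the 6 genes were called higher again, and their log2 fold changes were 1.53 for SMIM24, 1.40 for NYNRIN, 0.80 for CPXM1, 0.70 for CD34, 0.48 for SOCS2 and 0.44 for LAPTM4B.

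**Figure D4:**
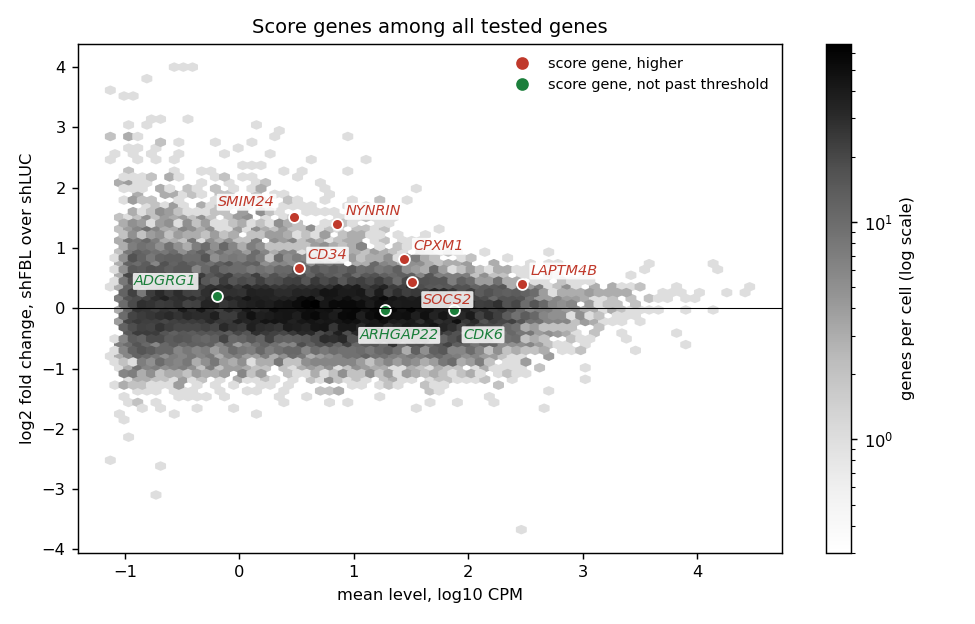
Log2 fold change (shFBL over shLUC) against mean level (log10 CPM) for all 18486 tested genes, as grey cells shaded by number of genes on a log scale and with values limited to 4 in either direction; coloured points are the 9 tested score genes. SMIM24 and NYNRIN lie above most genes of their level, while CDK6 and ARHGAP22 lie on the zero line.

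Leaving out any 1 of the 6 libraries kept 6 higher and 0 lower score genes, with the log2 fold change of SMIM24 between 1.39 and 1.62 and that of CD34 between 0.56 and 0.74. Control replicate 2 was the lowest control library for 5 of the 9 genes (CDK6, SMIM24, LAPTM4B, SOCS2 and ADGRG1) and the highest for the other 4. Without it CPXM1 was at 0.97 and CDK6 at -0.16.

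Partners and relatives of the score genes were read in the same fit, with each list's counts to be set beside the 15.7% higher and 16.9% lower among all tested genes, and its median beside the all-gene median of -0.01. Around CDK6, 4 of 16 tested genes (CDK4, the D cyclins, their inhibitors, the RB1 family and E2F factors) were higher and 3 lower, with a median of -0.07. The cell cycle inhibitor CDKN1A was at 16.0 ± 0.7 CPM in knockdown and 10.6 ± 0.7 CPM in control cells (SD, n = 3 each; log2 0.59, edgeR adjusted p = 0.000879). Of the D cyclins, CCND3 was higher, CCND2 was lower and CCND1 did not pass (0.216 CPM in knockdown and 0.233 CPM in control cells, edgeR adjusted p = 0.791). CCND3 rose to 137 ± 4.8 CPM in knockdown, against 92.3 ± 9.5 CPM in control cells (log2 0.57, edgeR adjusted p = 0.000986). CCND2 fell to 33.2 ± 0.3 CPM in knockdown, against 46.6 ± 3.2 CPM in control cells (log2 -0.49, edgeR adjusted p = 0.00131). The 3 lower genes became 1 without shFBL replicate 2, without shFBL replicate 3 or without shLUC replicate 3.

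Around SOCS2, 4 of 21 tested genes of the JAK-STAT pathway were higher and 7 lower, with a median of -0.11. Of the other inducible inhibitors, SOCS1 and SOCS3 were higher, and CISH did not pass (24.9 CPM in knockdown and 27.0 CPM in control cells, log2 -0.12, edgeR adjusted p = 0.439). SOCS1 was at 2.21 ± 0.09 CPM in knockdown and 1.32 ± 0.24 CPM in control cells (log2 0.74, edgeR adjusted p = 0.0047). SOCS3 was at 22.6 ± 2.2 CPM in knockdown and 13.8 ± 1.7 CPM in control cells (log2 0.71, edgeR adjusted p = 0.000833). STAT2, a transcription factor of the interferon response, fell to 8.65 ± 0.84 CPM in knockdown, against 14.0 ± 1.6 CPM in control cells (log2 -0.70, edgeR adjusted p = 0.00114). The 7 lower genes became 4 without shFBL replicate 2, without shFBL replicate 3 or without shLUC replicate 3.

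Among relatives of CD34, selectins and the adaptors CRK and CRKL, 1 of 5 tested genes was higher and 0 lower, with a median of -0.16. It was the related sialomucin PODXL at 12.9 ± 0.4 CPM in knockdown and 9.94 ± 0.88 CPM in control cells (log2 0.38, edgeR adjusted p = 0.0131). That call was lost without shFBL replicate 2 (adjusted p = 0.0559) and without shLUC replicate 3 (adjusted p = 0.077). Around ADGRG1, 5 of 15 tested ligands, relatives and signalling genes were higher and 2 lower, with a median of 0.13. ADGRG5, a related adhesion receptor, was at 2.10 ± 0.09 CPM in knockdown and 1.25 ± 0.27 CPM in control cells (log2 0.75, edgeR adjusted p = 0.00597). ARHGEF1 fell to 66.1 ± 8.3 CPM in knockdown, against 100.5 ± 18.5 CPM in control cells (log2 -0.60, edgeR adjusted p = 0.00642). ARHGEF11 was at 10.4 ± 0.5 CPM in knockdown and 7.18 ± 0.49 CPM in control cells (log2 0.54, edgeR adjusted p = 0.0022). Without shFBL replicate 3 ARHGEF1 missed the threshold (adjusted p = 0.0507) and the counts were 3 higher and 0 lower. Without shFBL replicate 2 the higher count was 3, and the lower count was 1 without shLUC replicate 1 or without shLUC replicate 3.

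The LAPTM and EMP families had 3 of 5 tested genes higher and 0 lower, with a median of 0.34. LAPTM5, the lysosomal relative of LAPTM4B in blood cells, was at 65.1 ± 4.0 CPM in knockdown and 41.1 ± 4.4 CPM in control cells (log2 0.66, edgeR adjusted p = 0.000536). EMP3 was at 111 ± 4.3 CPM in knockdown and 86.5 ± 1.4 CPM in control cells (log2 0.35, edgeR adjusted p = 0.00535). PMP22 was at 14.6 ± 0.3 CPM in knockdown and 11.6 ± 0.7 CPM in control cells (log2 0.34, edgeR adjusted p = 0.0152), and it missed the threshold without shFBL replicate 2 (adjusted p = 0.0571) and without shLUC replicate 3 (adjusted p = 0.0901). LAPTM4A, at 114 CPM in knockdown and 134 CPM in control cells, narrowly missed the threshold (log2 -0.23, edgeR adjusted p = 0.0511). In 6 of the 17 alternative settings, among them the fit without shLUC replicate 2, there was 1 lower gene. Among GTPase-activating relatives of ARHGAP22 and their RAC and CDC42 targets, 0 of 8 tested were higher and 1 was lower, with a median of -0.15. That was ARHGAP30 at 5.91 ± 0.98 CPM in knockdown and 9.91 ± 0.31 CPM in control cells (log2 -0.75, edgeR adjusted p = 0.00122), and without shLUC replicate 1 there were 2 lower genes.

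Of 18 other stem and progenitor genes tested, 3 were higher and 2 lower, with a median of 0.03. Over all tested genes 15.7% were higher and 16.9% lower, so the list's counts were near or under those shares. BAALC, a gene of CD34+ progenitors that is highly expressed in poor-risk leukaemia, was at 248 ± 23 CPM in knockdown and 163 ± 2.3 CPM in control cells (SD, n = 3 each; log2 0.61, edgeR adjusted p = 0.000532). HLF, a transcription factor of blood stem cells, was at 1.52 ± 0.09 CPM in knockdown and 0.844 ± 0.064 CPM in control cells (log2 0.85, edgeR adjusted p = 0.00179). LMO2, a bridging factor of stem cell transcription complexes, fell to 41.9 ± 1.6 CPM in knockdown, against 63.8 ± 1.2 CPM in control cells (log2 -0.60, edgeR adjusted p = 0.000258).

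Of 19 tested myeloid differentiation genes, 5 were higher and 4 lower, with a median of -0.11, where 15.7% of all tested genes were higher and 16.9% lower. The growth factor receptors CSF1R (3.37 ± 0.50 CPM in knockdown, 1.77 ± 0.07 CPM in control) and CSF3R (279 ± 18 CPM in knockdown, 173 ± 27 CPM in control) rose, at log2 0.93 and 0.69 (edgeR adjusted p = 0.000734 and 0.00106). FCGR1A, the high-affinity receptor for immunoglobulin G, fell to 1.83 ± 0.11 CPM in knockdown, against 2.88 ± 0.21 CPM in control cells (log2 -0.66, edgeR adjusted p = 0.00296). S100A8 (1.11 CPM in knockdown, 0.165 CPM in control) and LYZ (0.444 and 0.156 CPM) rose more, with means under 1 CPM. Their log2 fold changes were 2.74 and 1.49 (edgeR adjusted p = 7.01e-05 and 0.00524). CEBPA was also higher, and GFI1 and CTSG were lower. MPO fell (log2 -0.42, edgeR adjusted p = 0.0111), but it missed the threshold without shFBL replicate 2 (adjusted p = 0.0578) and without shFBL replicate 3 (adjusted p = 0.076). Without shLUC replicate 1 there were 7 lower genes. These are bulk libraries, in which a change in the share of cells that express a gene and a change in RNA per cell cannot be told apart.

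**Figure D5:**
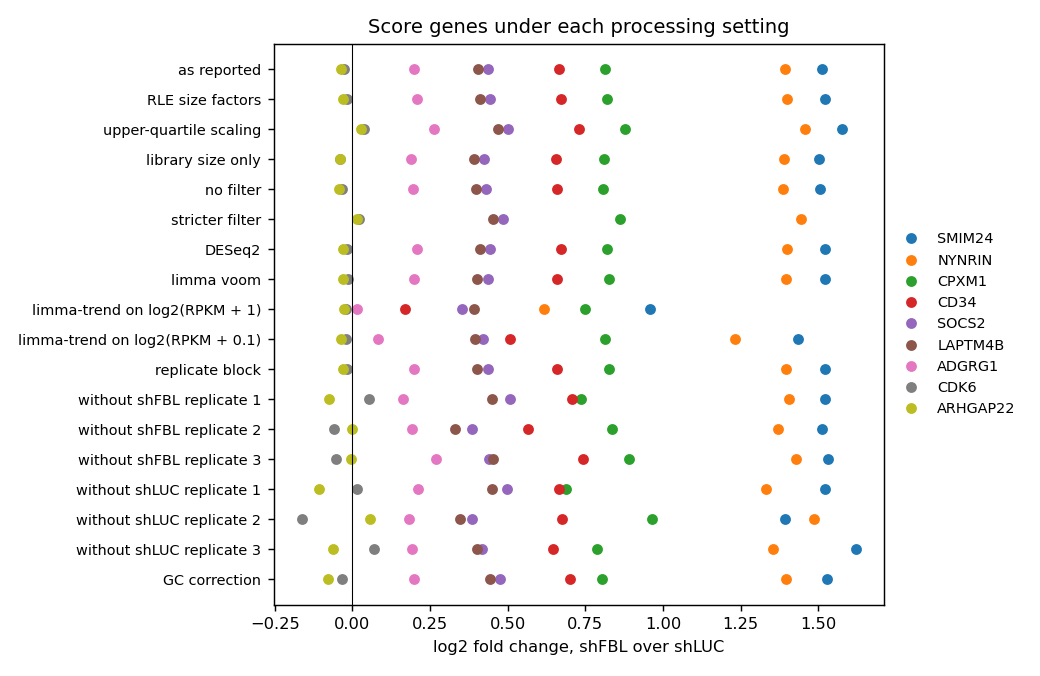
Log2 fold change (shFBL over shLUC) of the 9 tested score genes under the reported fit and each of 17 alternative settings, named on the vertical axis; a gene that a setting's filter removed has no point. SMIM24 and NYNRIN lead in all settings but log2(RPKM + 1), where CPXM1 passes NYNRIN, and SMIM24 has no point under the stricter filter.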

How the data were processed

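Whole-number counts per Ensembl gene were deposited by the authors for 6 RNA-seq libraries (3 FBL knockdown, 3 control) with gene lengths, beside a table of RPKM values. The submitters' processing notes name GRCh38 as build and, as tools, HISAT2, featureCounts, cutadapt 1.18 and edgeR. Not given in the sources used here: annotation release, strand setting, treatment of multi-mapping reads. The deposited RPKM values were rebuilt from the counts, lengths and TMM-scaled totals, and 100% matched within a relative tolerance of 1e-06. Every row names an Ensembl gene, and 0 columns were left unused.

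Counts were filtered with filterByExpr (minimum count 10, minimum total 15), scaled by TMM and compared with the quasi-likelihood test of edgeR 4.0.16 in R 4.3.3, with limma 3.58.1 and DESeq2 1.42.0 as alternatives. P-values were adjusted by Benjamini-Hochberg over all 18486 tested genes, and the threshold was 0.05. SE and 95% intervals come from the F statistic. On simulated data for knockdown against control (18261 genes, 200 changed), 68.6% of 1.5-fold and 100% of 2-fold changes were recovered, with 4% false calls. Only genes above a mean of 1 CPM were changed there, and 32.6% of genes passed in the real data, so these rates may not carry over. Positions and transcript GC come from GENCODE v29 (GRCh38), and promoter sequences from RefSeq. The text names FBL, both fusion genes, all score genes and, per list, up to 3 called genes of largest change whose mean reached 1 CPM. Outside that rule, CISH, CCND1, S100A8, LYZ, CEBPA, GFI1, CTSG, MPO, other marker genes and the antisense genes are named. Of these, CISH, CCND1, S100A8, LYZ, CEBPA, GFI1 and CTSG were named after their values were seen. The 10 genes, the lists, the motifs and the naming rule were chosen with earlier results of these data known.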

Additional observations from a re-analysis of the deposited data

How the results depend on the processing

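Across 17 alternative settings the 10 score genes gave 6 higher and 0 lower calls in each, except that the stricter filter (mean CPM of 5 or more, and 1 CPM reached by 3 libraries) left 6 genes tested and 4 higher, because SMIM24, CD34 and ADGRG1 were removed. FBL stayed lower throughout. The highest adjusted p of a higher score gene was 0.047, for LAPTM4B. The pseudocount of limma-trend on log2(RPKM + 1) understates changes of low genes, with NYNRIN at 0.62, SMIM24 at 0.96 and CD34 at 0.17, and on log2(RPKM + 0.1) with 1.23, 1.43 and 0.51.

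The count of called genes was 6026 as reported, 3774 with a replicate block, and 3898 to 6909 when 1 library was left out, with 3898 without shFBL replicate 2 and 4004 without shFBL replicate 3. Upper-quartile scaling gave 58.6% higher calls in place of 48.1%, and a GC correction chosen after seeing the data gave 8459 calls. Same-numbered samples did not deviate together (correlations -0.284, -0.198 and 0.045). With 3 libraries per group these correlations cannot show whether same-numbered samples shared a batch. The block kept 6 higher score genes. No shFBL library correlated best with the shLUC library of its own number, while shLUC replicate 3 did so with shFBL replicate 3.

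CDK6 (log2 fold change -0.03) turned to 0.038 under upper-quartile scaling and 0.021 with the stricter filter, and ran from -0.164 to 0.069 when 1 library was left out. ARHGAP22 (-0.04) turned to 0.029 under upper-quartile scaling and 0.014 with the stricter filter, and ran from -0.107 to 0.057 when 1 library was left out. RUNX1T1 (0.06) ran from -0.033 to 0.127 when 1 library was left out. None of these passed the threshold. ZBTB46 passed in 4 settings. The replicate block took the calls of PODXL, PMP22 and MPO (adjusted p = 0.0599, 0.062 and 0.0543). With the GC correction 8 myeloid genes were lower in place of 4, and 3 relatives of ARHGAP22 in place of 1. RUNX1 passed with the GC correction only. The cause of these shifts was not tested.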
